A study of Mus musculus with 6 samples.

Results

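Potassium channel genes were taken as the protein-coding rows of the deposited gene count table whose symbol starts with Kcn, together with Abcc8 and Abcc9, the subunits that complete the ATP-sensitive channel. The rule found 96 genes among 54532 rows. Their expression was followed in 6 bulk RNA-seq libraries. All carry the label NIT-1, a line grown from a mouse insulinoma and used in place of primary beta cells. The 3 EV_Tm libraries came from cells given hucMSC-EVs for 16 h, vesicles shed by mesenchymal stem cells of the human umbilical cord, and the 3 PBS_Tm libraries from cells given PBS for 16 h. Both groups were then exposed for 8 h to Tm, which the labels do not spell out, in a study on stress of the endoplasmic reticulum (ER). PBS_Tm samples carry a treatment label of none, whereas their titles read ERS and the design text gives them Tm, and these were followed. All cells were of 1 line, no library without Tm was analysed here, and it is not stated whether the 3 samples of a group were separate cultures, so the p-values reflect the spread between these samples alone, and that spread may be technical.

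Potassium channels let potassium leave the cell and so set the resting voltage and end electrical activity. In the pancreatic beta cell, an ATP-sensitive channel built from an inward rectifier (Kir6.2, Kcnj11) and a sulfonylurea receptor (SUR1, Abcc8) closes when glucose is metabolised. Calcium then enters and insulin is released, while voltage-gated, calcium-activated and two-pore channels shape or limit the depolarisation. Two-pore channels carry the background leak current, and Kcnk3 encodes TASK-1, an acid-sensitive member of that family.

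The libraries held 28654248 to 32550268 counts, and the first principal component, with 55.4% of the variance, separated EV_Tm from PBS_Tm. The mean chi-square per gene was 3.18 to 5.85 between libraries of a group, above sampling noise for independent counts, and 64.6 to 73.0 between the groups. The label of a beta cell was not borne out by its markers: of 15 beta cell genes, 10 never exceeded 3 counts in a library, Ins2 and Pdx1 had 0 counts, and the 15 together summed to 0.228 to 1.29 CPM (counts scaled to the size of the library) in EV_Tm and 0.228 to 0.589 CPM in PBS_Tm. Marker lists of other cells were also checked. Summed levels were 20.3 to 21.1 CPM in EV_Tm and 22.0 to 24.9 CPM in PBS_Tm for other islet endocrine cells (mostly Hhex; Sst and Ttr at 0), 113 to 116 CPM in EV_Tm and 84.6 to 92.6 CPM in PBS_Tm for acinar and duct cells (mostly Sox9 and Cela1; Cpa1, Amy2a5 and Krt19 at 0). For fibroblasts they were 17.7 to 20.5 CPM in EV_Tm and 22.3 to 23.6 CPM in PBS_Tm. For leukocytes they were 4.68 to 6.74 CPM in EV_Tm and 2.73 to 4.40 CPM in PBS_Tm, mostly Cd68. The other leukocyte genes had 39 counts or fewer each over all libraries, and Ptprc had 4. For endothelium the sums were 29.5 to 31.2 CPM in EV_Tm and 31.2 to 33.5 CPM in PBS_Tm (Kdr at 0). Of these lists 3 of 7, 2 of 6, 4 of 8, 1 of 5 and 3 of 4 genes had enough counts to be tested. Sox9, Cela1, Cd68 and Col3a1 rose and Hhex, Pecam1, Col1a1 and Pdgfrb fell. Their part in the differences below was not tested. A lower count in such bulk samples cannot tell fewer expressing cells from less RNA per cell.

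Most potassium channel genes were detected barely or not at all in these libraries. Of the 96 genes, 36 had 0 counts in all 6 libraries, 32 had some counts but too few to be tested, 8 were tested with a mean under 1 CPM, and 20 averaged 1 CPM or more. Testing needed about 10 counts in at least 3 libraries, which is 0.320 CPM. A gene with 0 counts may still be present at up to 3 counts, or 0.0922 to 0.105 CPM depending on the library. This limit covers counting error only and takes counts as independent. In the untested genes, nonzero counts were more often even than odd. Whether both reads of a pair were counted was not tested, and the limit would then be higher. The 28 tested genes were 29.2% of the set, where 57.7% of all 22046 protein-coding rows were tested, and 20.8% of the set reached 1 CPM, against 52.8% of protein-coding rows. The EAG, ERG and ELK family had the most tested genes, 5 of 8, while 0 of 5 KCNQ channels were tested. Every Kv beta subunit gene (3 of 3) was tested, but 3 of 15 Kir genes, 3 of 14 two-pore genes and 4 of 17 Kv1 to Kv4 pore genes were.

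**Figure D1:**
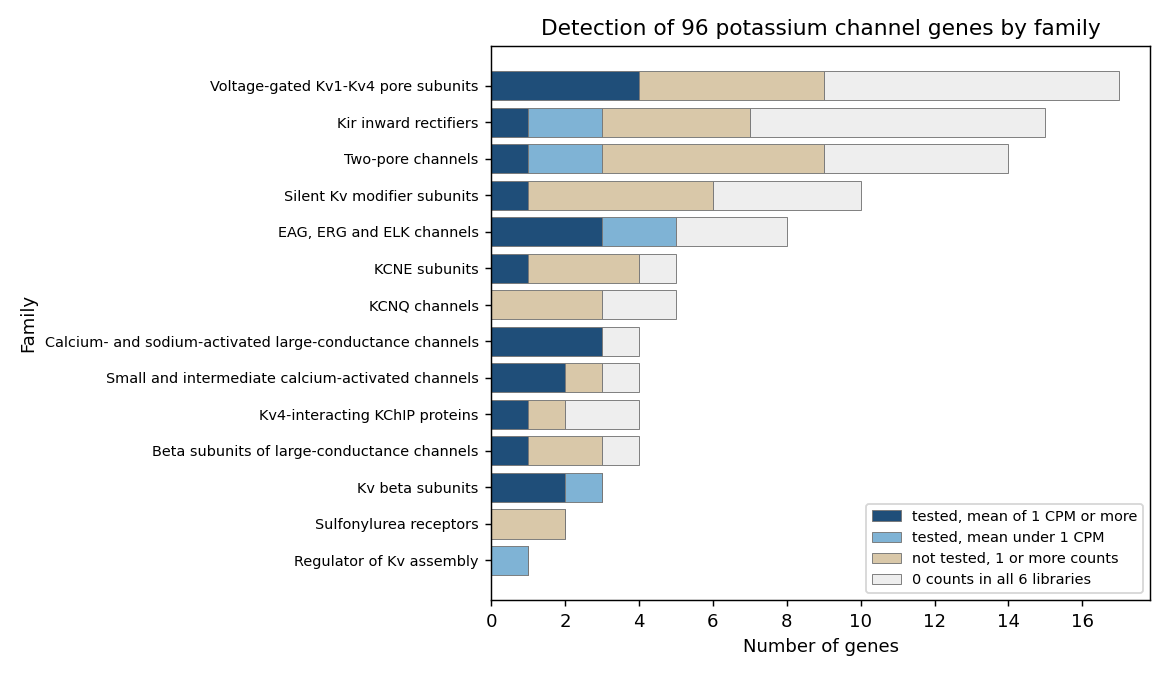
Number of potassium channel genes in each family (horizontal axis) by level class over the 6 libraries. Dark blue marks the 20 genes with a mean of 1 CPM or more, light blue the 8 tested below that, tan the 32 with counts too low to test and grey the 36 with 0 counts.

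When EV_Tm was set against PBS_Tm with the quasi-likelihood test of edgeR, 11 of the 28 genes had an adjusted p under 0.05 (Benjamini-Hochberg, over 16844 genes), which is 39.3%, where 47.4% of all tested genes passed. Of these 7 rose, Kcnk3, Kcnt1, Kcnn4, Kcnab3, Kcnma1, Kcnh1 and Kcng4 (25% of those tested, beside a background of 22.6%), and 4 fell, Kcnd3, Kcne1, Kcnj4 and Kcnrg (14.3%, beside 24.7%). At 2-fold or more there were 5, Kcnk3 and all 4 that fell, which is 17.9% beside 5.97% of all tested genes. The values of EV_Tm and PBS_Tm did not overlap in 13 of the 28 genes (46.4%, beside 54.5%). The median log2 fold change of the 28 genes was 0.18 and their median absolute change 0.35, where all tested genes had 0.01 and 0.28. Of the 28, 23 reached the testing level in all libraries of both groups. Kcnrg reached it throughout PBS_Tm alone, Kcnk4 throughout EV_Tm alone, and Kcnh4, Kcnh6 and Kcnab1 in a mix of libraries.

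**Figure D2:**
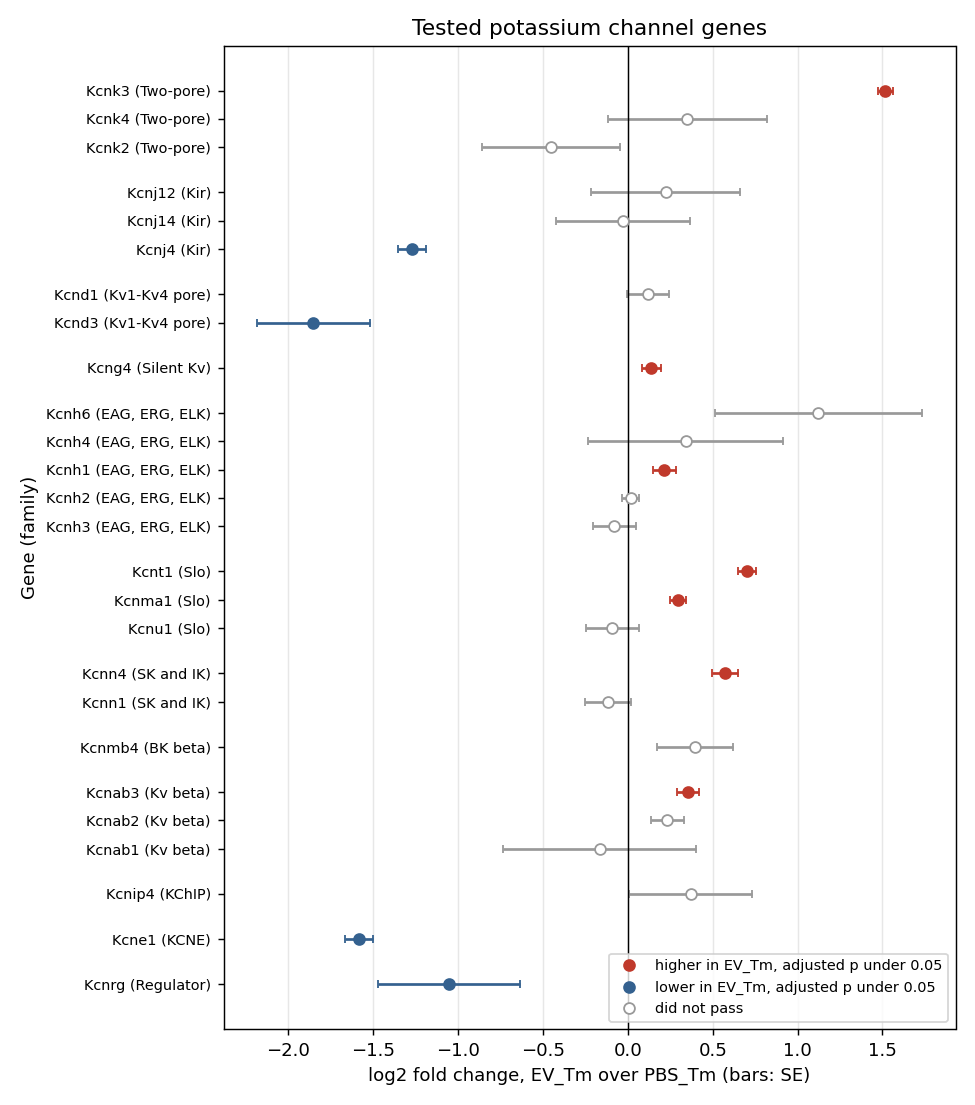
log2 fold change of EV_Tm over PBS_Tm for 26 of the 28 tested genes, grouped by family, with bars of 1 SE. Filled red points are the 7 genes that rose, filled blue points the 4 that fell and open points those that did not pass; the longest bars belong to genes of low level such as Kcnh6 and Kcnab1.

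Kcnk3 rose the most of the members and was the most abundant per length in EV_Tm; in PBS_Tm its range overlapped that of Kcnj4. This gene (chromosome 5, 30588170 to 30625271, coordinates here read as GRCm38) stood at 280, 290 and 288 CPM in the EV_Tm libraries, and at 104, 99.1 and 96.4 CPM in the PBS_Tm libraries. Each vesicle-treated library was far above each PBS library, with means of 286 ± 5 CPM in EV_Tm and 99.96 ± 4.07 CPM in PBS_Tm (SD, n = 3 each). The log2 fold change was 1.52 ± 0.04 (SE, adjusted p = 3.17e-19 in edgeR), or 2.86-fold, the 202nd largest rise among 16844 tested genes. It lay between 1.49 and 1.56 under the 14 alternatives tried. The annotation places Gm9899, a processed transcript, on the opposite strand with 229 of the 3976 exonic bases of Kcnk3. Gm9899 averaged 16.3 CPM and rose by a similar amount (1.36 ± 0.09, SE, adjusted p = 6.2e-12 in edgeR). The sources used here do not say whether reads were counted by strand, and reads from the overlap of the 2 genes cannot be told apart.

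The other two-pore genes were at most faint. Kcnk2 (TREK-1, a stretch-sensitive channel) had 0.995, 0.413 and 0.837 CPM in EV_Tm and 1.44, 0.993 and 0.653 CPM in PBS_Tm (log2 fold change -0.45 ± 0.41, SE, adjusted p = 0.388 in edgeR). Its relative Kcnk4 (TRAAK) had 0.738, 1.07 and 0.558 CPM in EV_Tm and 1.1, 0.463 and 0.28 CPM in PBS_Tm (0.35 ± 0.47, SE, adjusted p = 0.573 in edgeR), and 587 of its exonic bases are shared with Catsperz on the same strand. In both genes the groups overlapped. The remaining 11 two-pore genes were not tested. Of these 5 had 0 counts, among them Kcnk9, which encodes TASK-3, the closest partner of TASK-1, and Kcnk16, which encodes TALK-1, a two-pore channel known from beta cells. The highest of the untested was Kcnk7, with 28 counts over the EV_Tm libraries and 14 over the PBS_Tm libraries.

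Levels can be compared between genes only per length, and were expressed as RPKM (CPM per kilobase of exon). The length was the deposited one, which for 27 of the 28 tested genes is that of all merged exons. It may differ from the length of the transcripts present, and the order and shares below depend on it. Kcnk3 reached 72.0 ± 1.3 RPKM in EV_Tm and 25.1 ± 1.0 in PBS_Tm (SD, n = 3 each). In EV_Tm it was followed at a distance by Kcnh2 (20.8), Kcnab3 (18.9), Kcng4 (15.3), Kcnt1 (9.99) and Kcnj4 (8.94 RPKM), with no overlap between neighbours in this order. In PBS_Tm the top was shared: Kcnk3, Kcnj4 (21.5 ± 2.5 RPKM) and Kcnh2 (20.6 ± 1.0) overlapped from one to the next, and Kcnab3 (14.8), Kcng4 (13.9) and Kcne1 (10.5 RPKM) came after. Kcnk3 made up 38.7% ± 0.4 of the summed RPKM of the 28 tested genes in EV_Tm, against 17.3% ± 0.2 in PBS_Tm. The sum itself was 186 ± 1 RPKM in EV_Tm and 145 ± 5 in PBS_Tm, but without Kcnk3 it was 114.3 ± 0.44 RPKM in EV_Tm and 119.8 ± 4.4 RPKM in PBS_Tm (SD, n = 3 each). The 6 other genes that rose summed to 64.1 ± 0.9 RPKM in EV_Tm and 50.4 ± 1.5 in PBS_Tm, and the 4 that fell to 12.8 ± 0.3 in EV_Tm and 32.9 ± 2.6 in PBS_Tm.

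**Figure D3:**
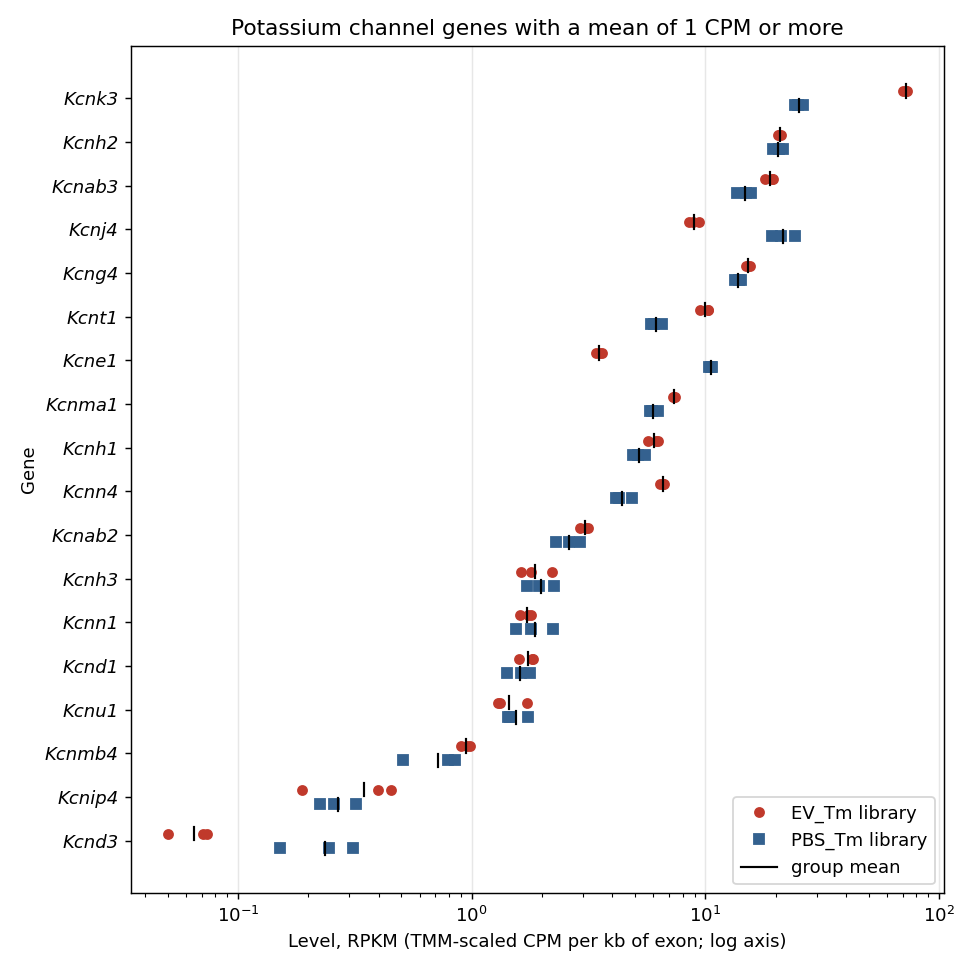
Level of 18 of the 20 genes with a mean of 1 CPM or more, in RPKM on a log axis, for each EV_Tm library (red circles) and PBS_Tm library (blue squares), with a black tick at each group mean. Kcnk3 stands apart at the top in EV_Tm, Kcnj4, Kcne1 and Kcnd3 lie to the left in EV_Tm, and Kcnh2 coincides between the groups.

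**Figure D4:**
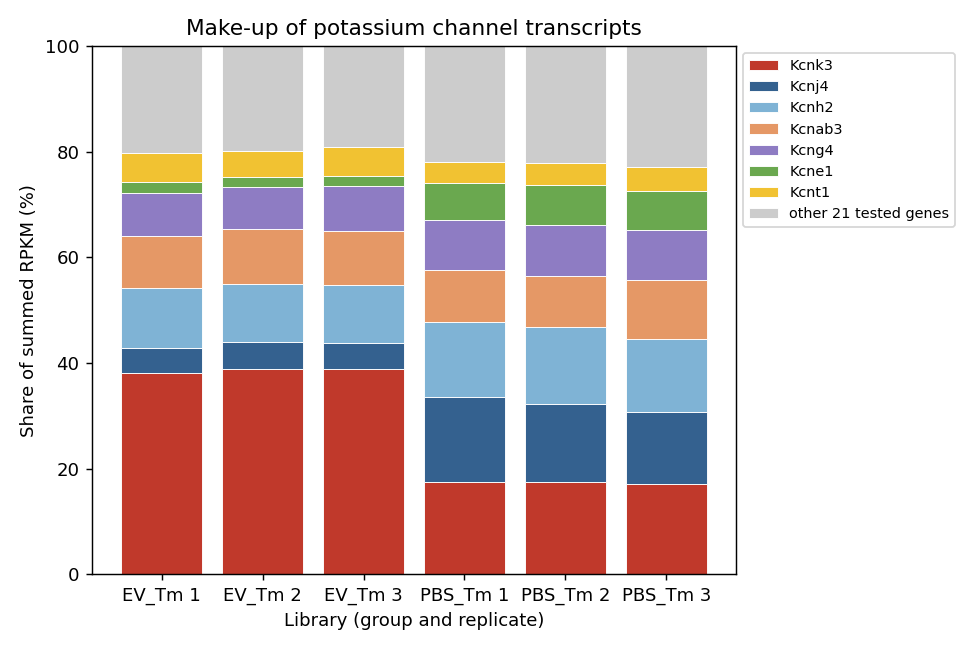
Share of each gene in the summed RPKM of the 28 tested genes (vertical axis, percent), 1 bar per library. Kcnk3 holds 38.7% on average in EV_Tm and 17.3% in PBS_Tm, while the shares of Kcnj4 and Kcne1 are smaller in EV_Tm.

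Promoter sequence is shown for the potassium channel genes of 1 CPM or more that passed with a log2 change of at least 0.5 and are in the RefSeq promoter table (GRCm38.p6), 1 that rose and 2 that fell, so that the region upstream of genes that moved can be read directly. Each line gives the 250 bases before the annotated start, 5′ to 3′ on the strand of the gene, with matches to the motifs searched in capitals. The start used for Kcnd3 lies 440 bases from the gene start in the deposited table.
Kcnn4 (chr7:24370013-24370262, plus strand): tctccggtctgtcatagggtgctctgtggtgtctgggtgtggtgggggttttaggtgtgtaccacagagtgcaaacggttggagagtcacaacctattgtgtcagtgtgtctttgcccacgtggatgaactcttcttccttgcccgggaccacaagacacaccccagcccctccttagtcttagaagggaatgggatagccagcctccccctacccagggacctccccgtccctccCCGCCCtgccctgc
Kcnj4 (chr15:79505242-79505491, minus strand): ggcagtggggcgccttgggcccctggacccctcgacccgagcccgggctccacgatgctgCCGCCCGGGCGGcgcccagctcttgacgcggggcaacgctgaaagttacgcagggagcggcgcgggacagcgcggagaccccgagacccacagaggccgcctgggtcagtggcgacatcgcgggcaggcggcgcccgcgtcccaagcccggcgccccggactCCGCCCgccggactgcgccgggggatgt
Kcnd3 (chr3:105451640-105451889, plus strand): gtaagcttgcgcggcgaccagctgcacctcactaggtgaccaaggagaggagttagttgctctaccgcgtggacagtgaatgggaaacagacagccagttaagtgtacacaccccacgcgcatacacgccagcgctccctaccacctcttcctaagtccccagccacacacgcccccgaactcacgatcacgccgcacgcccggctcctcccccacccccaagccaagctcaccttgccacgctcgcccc

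Kcnk3, Kcnt1 and Kcne1 are not shown. The table holds 70 of the 96 genes, and of the 28 tested 18 matched the table by symbol. Windows of 300 bases (250 before and 50 after the start) were searched on both strands for the ER stress element (CCAAT and CCACG with 9 bases between them), the unfolded protein response element TGACGTGG, the cAMP response element TGACGTCA, the amino acid response element TTGCATCA, the AP-1 motif TGANTCA and the GC box GGGCGG. Among 32851 windows in the table these letters occurred in 0.119%, 0.676%, 1.79%, 0.895%, 7.81% and 35.7%. The capitals above are all GC boxes, 1 in Kcnn4 and 3 in Kcnj4, 2 of them side by side on opposite strands. They overlap no other motif. None of the first 5 motifs was found in the 4 genes with a window that rose or the 3 that fell. Among the 11 genes that did not pass, the unfolded protein response element occurred in Kcnab2 and the AP-1 motif in Kcnip4 and Kcnk2. GC boxes were present in 3 of the 4 that rose, 1 of the 3 that fell and 9 of the 11 that did not pass. A gene was counted if any of its windows held the motif. The percentages above are shares of single windows, so the gene counts cannot be set directly against them.

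The inward rectifiers were represented mainly by Kcnj4 (Kir2.3, a strong rectifier; chromosome 15, 79483714 to 79505241), which fell. Its level was 18.4, 20.2 and 19.1 CPM in EV_Tm, against 52.3, 45.3 and 41.6 CPM in PBS_Tm. No EV_Tm library came near the lowest PBS_Tm library, and the log2 fold change was -1.27 ± 0.08 (SE, adjusted p = 2.91e-12 in edgeR), or 2.41-fold lower. Kcnj12 (Kir2.2) and Kcnj14 (Kir2.4) reached at most 1.03 CPM in a library and did not pass. Transcripts of the ATP-sensitive channel were all but missing. The pore genes Kcnj11 (Kir6.2) and Kcnj8 (Kir6.1) had 0 counts in all 6 libraries, as did 6 further Kir genes. Abcc8 had 4, 4 and 2 counts in EV_Tm and 15, 8 and 14 in PBS_Tm, too few to be tested. With no filter its log2 fold change was -1.82 ± 0.80 (SE, adjusted p = 0.0754 in edgeR). Without PBS_Tm replicate 2, its lowest PBS_Tm library, it was tested and passed (-2.03 ± 0.73, SE, adjusted p = 0.0289 in edgeR). It then reached the testing level only through the PBS_Tm libraries where it was high, so nothing is read from that pass. Abcc9 (SUR2) had 7, 6 and 5 counts in EV_Tm and 4, 4 and 6 in PBS_Tm.

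Among the Kv1 to Kv4 pore genes, 1 of 4 tested fell and 0 rose, a count near the 24.7% of all tested genes that fell. The 1 tested gene for a silent subunit rose slightly. Kcng4 (Kv6.4), a silent subunit that forms channels only together with other Kv pore subunits, had 57.9, 56.9 and 59.4 CPM in EV_Tm and 54.1, 53 and 51.1 CPM in PBS_Tm. The groups were separate by little, at a log2 fold change of 0.14 ± 0.06 (SE, adjusted p = 0.0421 in edgeR). The call was lost when EV_Tm replicate 1, 2 or 3 or PBS_Tm replicate 2 or 3 was left out (adjusted p = 0.0775 to 0.147), with no filter (0.117) and in the replicate-blocked fit (0.0697). Kcnd3 (Kv4.3, an A-type channel subunit) had the largest fall of the set from a low level, with 0.706, 0.482 and 0.682 CPM in EV_Tm and 2.36, 1.46 and 2.98 CPM in PBS_Tm. The groups were separate and the log2 fold change was -1.85 ± 0.33 (SE, adjusted p = 5.61e-05 in edgeR). Its relative Kcnd1 (Kv4.1) did not pass, with 9.56, 8.48 and 9.65 CPM in EV_Tm and 8.57, 7.48 and 9.42 CPM in PBS_Tm. Of these pore genes 13 of 17, among them all 8 Kv1 genes, were under the testing level, with Kcnc1 (47 counts) and Kcna7 (45 counts) the highest.

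In the EAG, ERG and ELK family 1 of 5 tested genes rose, Kcnh1, and 4 did not pass, where 22.6% of all tested genes rose. Kcnh2 (ERG1, a slowly deactivating channel) was the second most abundant channel gene per length in EV_Tm and had 103, 101 and 99.1 CPM there, against 104, 100 and 94.4 CPM in PBS_Tm. The ranges overlapped, with a log2 fold change of 0.02 ± 0.05 (SE, adjusted p = 0.816 in edgeR). Kcnh1 (EAG1, a voltage-gated channel of the nervous system also known from tumours) had 46.1, 41.6 and 45 CPM in EV_Tm, all above the 36.1, 37.8 and 40.4 CPM in PBS_Tm. The log2 fold change was 0.21 ± 0.07 (SE, adjusted p = 0.00967 in edgeR), but did not pass without EV_Tm replicate 1 (adjusted p = 0.0634) or PBS_Tm replicate 1 (adjusted p = 0.0521). Kcnh3 (an ELK channel) had 10.3, 12.7 and 9.34 CPM in EV_Tm and 12.9, 9.93 and 11.2 CPM in PBS_Tm. Kcnh3 did not pass. The faint Kcnh4 and Kcnh6, under 1 CPM in every library, did not pass either, with log2 fold changes of 0.34 ± 0.57 for Kcnh4 and 1.12 ± 0.61 for Kcnh6 (SE, adjusted p = 0.659 and 0.139 in edgeR), and Kcnh5, Kcnh7 and Kcnh8 had 0 counts.

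Among the calcium- and sodium-activated families, with the relative Kcnu1 counted in, 3 of 5 tested pore genes rose and 0 fell. Of all tested genes 22.6% rose and 24.7% fell, and nothing particular to these families is read from so few genes. Kcnt1 (Slack, a sodium-activated channel; chromosome 2, 25863734 to 25918273) had 97.6, 90.1 and 97.2 CPM in EV_Tm, against 57.5, 55.6 and 61.8 CPM in PBS_Tm. The groups were well apart, with a log2 fold change of 0.70 ± 0.05 (SE, adjusted p = 8.55e-11 in edgeR), or 1.63-fold. Kcnn4 (the intermediate-conductance calcium-activated channel) had 32.8, 34.2 and 33.8 CPM in EV_Tm, against 24.7, 21.9 and 21.1 CPM in PBS_Tm. It was 1.49-fold higher with no overlap (log2 fold change 0.57 ± 0.08, SE, adjusted p = 1.03e-06 in edgeR). Kcnma1 (the large-conductance BK channel, opened by calcium and voltage) had 125, 125 and 123 CPM in EV_Tm and 100, 98.8 and 106 CPM in PBS_Tm. Its rise was modest, 1.23-fold (0.29 ± 0.05, SE, adjusted p = 8.21e-06 in edgeR), and 1016 of its 16976 exonic bases are shared with a transcript on the opposite strand, 4930519K11Rik, at 2.07 CPM.

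Kcnn1 (SK1, a small-conductance calcium-activated channel) and Kcnu1 (SLO3, known from sperm) did not pass. Kcnn1 had 8.25, 7.99 and 7.41 CPM in EV_Tm and 10.2, 8.28 and 7.12 CPM in PBS_Tm. Kcnu1 had 6.48, 4.82 and 4.93 CPM in EV_Tm and 6.5, 5.36 and 5.44 CPM in PBS_Tm. Both pairs of ranges overlapped. Of the subunits that tune the BK channel, Kcnmb4 had 2.98, 3.17 and 3.26 CPM in EV_Tm and 1.7, 2.81 and 2.64 CPM in PBS_Tm. These values were separate, yet the difference did not pass (0.40 ± 0.22, SE, adjusted p = 0.153 in edgeR). The other 3 BK beta genes had 9 counts or fewer over all libraries.

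Accessory subunits included the sharpest fall by test and a clear rise. Kcne1 (minK; chromosome 16, 92345982 to 92359468), a single-pass subunit that slows KCNQ1 and can also bind other pore subunits, had 11.6, 10.9 and 11.4 CPM in EV_Tm and 33.9, 34.4 and 33.3 CPM in PBS_Tm. This was a 3-fold lower level with tight replicates, a log2 fold change of -1.58 ± 0.08 (SE, adjusted p = 3.23e-14 in edgeR). Its classical partner Kcnq1 had 8 counts over all 6 libraries and the other 4 KCNQ genes 0 to 23. Kcne2, another single-pass subunit, had 35 counts over the EV_Tm libraries and 14 over the PBS_Tm libraries and was not tested. Kcnab3 (Kv beta 3, a cytosolic subunit of the aldo-keto reductase fold) had 51.8, 55.7 and 55.3 CPM in EV_Tm, all above the 42.9, 39 and 45.2 CPM in PBS_Tm. It was 1.28-fold higher (0.36 ± 0.06, SE, adjusted p = 5.44e-05 in edgeR). Kcnab2 (Kv beta 2) had 17.3, 16.3 and 17.6 CPM in EV_Tm and 12.8, 14.6 and 16.2 CPM in PBS_Tm. Those ranges were just separate and the difference missed the threshold (0.23 ± 0.10, SE, adjusted p = 0.0556 in edgeR). The Kv1 pore genes that these beta subunits usually join were at 0 counts, apart from Kcna7.

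Faint accessory genes complete the tested set. Kcnip4, a calcium-binding KChIP that joins Kv4 channels, had 1.64, 1.45 and 0.682 CPM in EV_Tm and 0.817, 1.16 and 0.932 CPM in PBS_Tm and did not pass. Of its 3627 exonic bases, 168 are shared with 5730480H06Rik on the opposite strand, which averaged 14.8 CPM. Kcnrg, whose product is described to hinder Kv assembly in the ER, had 0.61, 0.62 and 0.248 CPM in EV_Tm and 1.01, 1.16 and 0.901 CPM in PBS_Tm. It passed narrowly (-1.05 ± 0.42, SE, adjusted p = 0.042 in edgeR). The call was lost without EV_Tm replicate 1 or 3, without PBS_Tm replicate 1, 2 or 3 (adjusted p = 0.0506 to 0.191) and in DESeq2 (adjusted p = 0.0553). Kcnab1 was at 0.963 CPM in PBS_Tm replicate 3 and at 0.22 to 0.517 CPM in the other 5 libraries.

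**Figure D5:**
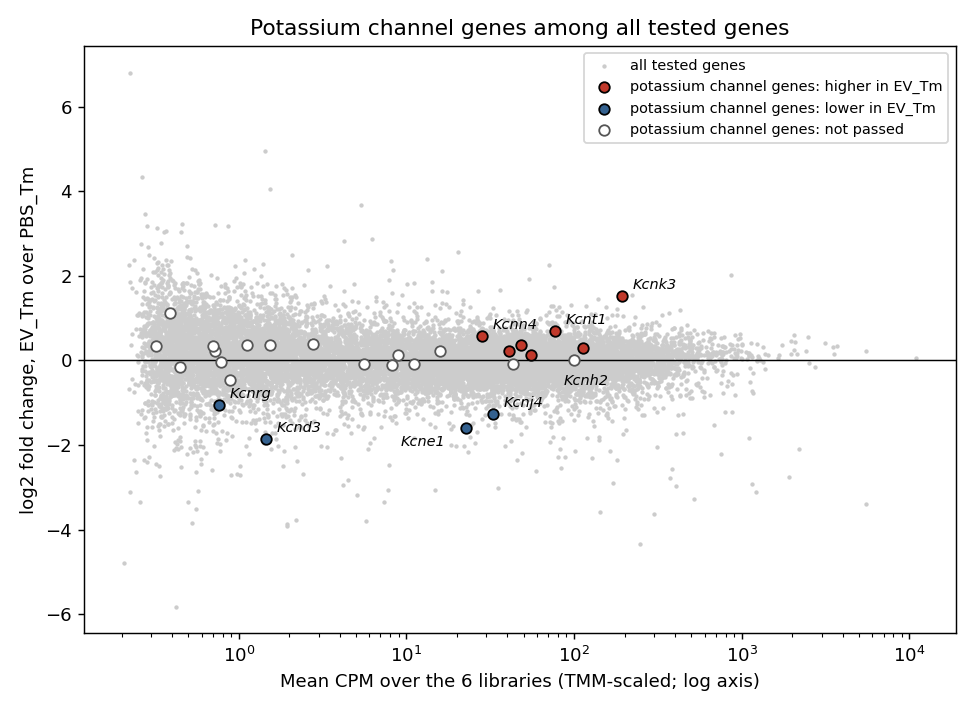
log2 fold change of EV_Tm over PBS_Tm against mean CPM (log axis) for all 16844 tested genes (grey) and the 28 tested potassium channel genes (circles; red higher, blue lower, open not passed). Kcnk3 lies at 1.52, Kcnt1 at 0.70, Kcnj4 at -1.27, Kcne1 at -1.58 and Kcnd3 at -1.85, while Kcnh2 lies near 0.

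On a list of 29 partner proteins outside the Kcn names, 22 were tested, of which 7 were higher in EV_Tm, 8 lower and 7 not past the threshold. Of all tested genes 22.6% were higher and 24.7% lower, and nothing particular to the list is read from its count (median log2 fold change -0.08, where all tested genes had 0.01). The 4 with the smallest p were Copb1, S100a10, Sgk1 and Calm3. Copb1, a subunit of the COPI coat that returns channels such as TASK-1 to the ER, was at 141 ± 1 CPM in EV_Tm and 255 ± 3 in PBS_Tm (log2 fold change -0.85 ± 0.04, SE, adjusted p = 6.83e-15 in edgeR). S100a10 (p11), which binds TASK-1, was at 147 ± 5 CPM in EV_Tm and 85.0 ± 3.1 in PBS_Tm (0.79 ± 0.05, SE, adjusted p = 5.43e-13 in edgeR). Sgk1, a kinase that regulates channel abundance at the membrane, was at 154 ± 10 CPM in EV_Tm and 88.0 ± 6.1 in PBS_Tm. Calm3, one of the genes for calmodulin, the calcium sensor of SK and IK channels, was at 314 ± 4 CPM in EV_Tm and 205 ± 10 in PBS_Tm (SD, n = 3 each). Calm2, another calmodulin gene and named after its values were seen, also rose (0.63 ± 0.04, SE, adjusted p = 8.69e-12 in edgeR).

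On a list of 30 potassium pumps, cotransporters and other potassium-permeable channels, 23 were tested, of which 5 were higher in EV_Tm, 6 lower and 12 not past the threshold, with a median log2 fold change of -0.01. These counts lie near the 22.6% higher and 24.7% lower among all tested genes and are no result about the list. The sodium-potassium pump, which builds the gradient that the channels spend, was among the rises. Its subunit Atp1b1 was at 718 ± 17 CPM in EV_Tm and 460 ± 7 in PBS_Tm (log2 fold change 0.64 ± 0.04, SE, adjusted p = 1.75e-13 in edgeR), and Atp1b2 at 88.9 ± 3.1 CPM in EV_Tm and 65.8 ± 3.5 in PBS_Tm. Atp1b3, named after its values were seen, rose by 0.20 on the log2 scale. Hcn3, a pacemaker channel gene, was also higher, at 26.2 ± 1.7 CPM in EV_Tm and 14.2 ± 1.2 in PBS_Tm (0.89 ± 0.09, SE, adjusted p = 1.03e-08 in edgeR). Slc12a2 (NKCC1, a sodium-potassium-chloride cotransporter) fell to 165 ± 4 CPM in EV_Tm, against 277 ± 11 in PBS_Tm (SD, n = 3 each).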

How the data were processed

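Per the labels' protocols, total RNA was isolated with Trizol and reads were aligned with HISAT2 2.2.1; per the submitters' processing notes, featureCounts 2.0.6 and the build mm39 were used. The authors deposited whole-number counts for each gene, not normalized. Gene start, end and length are other deposited values, in bases: start and end equalled GENCODE M21 (GRCm38) for 98.33% of shared gene IDs, and 27 of 28 tested members had the length of their merged exons. The strand setting and the handling of multiply mapped reads are not stated there.

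EV_Tm was compared with PBS_Tm in edgeR 4.0.16 (R 4.3.3; TMM, filterByExpr, quasi-likelihood F test, two-sided, Benjamini-Hochberg over 16844 genes). CPM uses TMM-scaled library sizes, except for marker sums and the 3-count limit; RPKM divides it by the deposited length. In 5 simulations on these 16844 genes, 45.6% of genes changed 1.25-fold, 59.6% at 1.5-fold, 76% at 2-fold and 89.6% at 4-fold were recovered, with 7.39% false calls, above the nominal 5%. Far fewer genes were changed there than the 47.4% that passed in the data. The adjusted p cutoff was thus stricter in the simulations, and these rates do not carry over to this comparison. Values in every library are given for tested members of 1 CPM or more, and the 4 partner genes of smallest p per list are named; Kcnk2, Kcnk4, Kcnab1 and Kcnrg are given beyond that rule. Members and lists were chosen with earlier results of these data known. Alternatives were DESeq2 1.42.0 (test or size factors), limma-voom (limma 3.58.1), library size alone, no filter, 1 CPM in 3 libraries, a replicate block, protein-coding genes only, adjusted p under 0.01, 2-fold, and leaving out each library. Some genes in these counts are not reported here by name.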

Additional observations from a re-analysis of the deposited data

How the results depend on the processing

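The count of potassium channel genes higher in EV_Tm was 7, and 6 to 8 under other scalings, filters, tests and an adjusted p under 0.01, 5 to 7 when each library was left out, and 1 (Kcnk3) with a fold change of at least 2; the count lower was 4, and 3 or 4 throughout. Kcnk3 passed in all 14 alternatives, at 1.49 to 1.55 (log2) with a library left out, as did Kcnt1, Kcnn4, Kcnma1, Kcnab3, Kcne1, Kcnj4 and Kcnd3. With the replicate block 6 were higher and 4 lower, and only Kcng4 changed its call (adjusted p = 0.0697); same-numbered libraries did not deviate together (correlations -0.043, 0.016 and -0.014). Kcnab2 passed with library size alone, with the stricter filter, among protein-coding genes only and without PBS_Tm replicate 3 (adjusted p = 0.0152 to 0.0374). Signs turned only in genes that did not pass: Kcnj14 was 0.0094 with library size alone and 0.0059 among protein-coding genes, Kcnab1 0.11 in limma-voom and 0.0161 in the blocked fit, and with a library left out the log2 fold changes ran from -0.25 to 0.001 for Kcnu1, -0.0265 to 0.0488 for Kcnh2, -0.2149 to 0.0222 for Kcnh3, -0.21 to 0.71 for Kcnh4, -0.0596 to 0.51 for Kcnj12, -0.19 to 0.21 for Kcnj14, -0.51 to 0.89 for Kcnab1, -0.24 to 0.0326 for Kcnn1 and -0.0029 to 1.07 for Kcnk4. The cause was not tested. The stricter filter leaves out the 8 tested members under its level, Kcnrg among them. Low counts limit what can be said of the 68 untested genes. The 36 with 0 counts could not be fitted. With no filter 0 of the other 32 passed in edgeR, and 4 of these had an unadjusted p under 0.05.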

Other observations

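The table also holds 5 antisense rows with Kcn symbols, which the choice of protein-coding genes left out. Kcnq1ot1, the imprinted antisense RNA of the Kcnq1 locus (chromosome 7, 143203458 to 143296549), had 168, 169 and 175 CPM in EV_Tm, against 108, 105 and 127 CPM in PBS_Tm. It was 1.51-fold higher with no overlap between the groups (log2 fold change 0.59 ± 0.06, SE, edgeR adjusted p = 2.53e-09), while its host gene Kcnq1 had 8 counts over all libraries. Kcnmb4os2 had 2.52 ± 0.12 CPM in EV_Tm and 2.47 ± 0.50 in PBS_Tm (SD, n = 3 each) and did not pass (edgeR adjusted p = 0.926). It shares 693 exonic bases with Kcnmb4 on the opposite strand. Kcnab3os, Kcnmb4os1 and Kcnd3os had 48, 13 and 0 counts over all libraries.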
